A study of Gallus gallus with 4 samples.

Results

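The genes described here are of families that form parts of cullin-RING ubiquitin ligases: cullin scaffolds, and F-box, BTB, DCAF and SOCS-box adaptors or receptors. They were chosen by name alone, as every gene of the deposited count table whose symbol begins with CUL, FBXL, FBXO, FBXW, KLHL, KCTD, DCAF or SOCS followed by a digit, with 1 cullin gene left out and at least 20 reads summed over the 4 libraries. The rule found 108 genes among the 12643 with that many reads, in a table of 13081 genes on chromosomes 1 to 21. By family these are 5 CUL, 13 FBXL, 28 FBXO, 6 FBXW, 28 KLHL, 17 KCTD, 5 DCAF and 6 SOCS genes. No sequence of the members is shown, because the sources used here held none.

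The libraries are RNA sequencing of whole chick (Gallus gallus) embryos, treated at Hamburger-Hamilton stage 8 and collected on day 6 of development. The control received DMSO, the solvent. One treated group received thalidomide at 40 µg/ml, another spermine NONOate at 10 µM, and a combination group both agents at those doses, with 1 library for each group. Thalidomide is a teratogen that binds cereblon, a substrate receptor of a cullin-RING ligase, and spermine NONOate is a donor that releases nitric oxide, so the layout asks how a nitric oxide donor and thalidomide act alone and together. The sources used here do not give the strain or say whether a library is 1 embryo or a pool. A whole embryo mixes all tissues, so for every gene below fewer cells of a type and less RNA per cell cannot be told apart.

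Cullin-RING ligases attach ubiquitin to proteins, most of which are then degraded by the proteasome. A cullin is the scaffold: its one end holds a RING protein that recruits the ubiquitin-loaded enzyme, and its other end holds an adaptor and an exchangeable substrate receptor. F-box proteins dock on CUL1 through SKP1, BTB proteins of the KLHL and KCTD families dock on CUL3, DCAF proteins dock on CUL4 through DDB1, and SOCS-box proteins dock on CUL5 or CUL2 through elongins. Attachment of NEDD8 switches the scaffold on and the COP9 signalosome removes it. The roles given below were worked out mainly in human and mouse cells.

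Reads counted in the genes of the deposited table were 79359076 for the control, 66889240 for thalidomide, 62576258 for spermine NONOate and 72309065 for the combination. Reads per member over all 4 libraries ranged from 60 to 114486, with a median of 8115. Levels are given as raw reads or as CPM, reads scaled by TMM to a common library size, and they are not corrected for gene length, so they compare a gene between libraries and not one gene with another. With 1 library a group there is no replicate error and no p-value for a pair of libraries. A member was called higher or lower where the ratio was at least 2-fold with 0.5 reads added, the higher library had at least 20 reads, and the 95% exact interval of the ratio excluded 1. Intervals cover counting error only. All members but FBXO43, with 16, 17, 10 and 17 reads in the control, thalidomide, spermine NONOate and combination libraries, reached the read minimum, which leaves 107. Values in fours below keep that order of libraries.

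Of the 108 members, 15 were called in at least 1 of the 5 comparisons of 2 libraries. The share of all genes called in at least 1 is not given, so shares are set side by side for each comparison. Thalidomide against control gave 5 members higher (FBXL4, FBXO39, KCTD21, KLHL1 and KLHL38), where 9.22% of all genes were called higher. It gave 5 lower (KCTD12, KCTD14, KLHL30, SOCS1 and SOCS3), where 7.23% of all genes were. In either direction that is 9.35% of the members against 16.5% of all genes. The median size of the log2 ratio, sign ignored, was 0.31 in the members and 0.47 over all genes. Of the 17 members with under 1000 reads in all, 7 were called, and of the 91 with more, 3 were. No share of all genes is given for these read ranges, so the counts are not read as a trait of the members.

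The combination against control gave 5 members higher (FBXL4, FBXO39, FBXO41, KLHL1 and KLHL38; background 10.1%) and 4 lower (KCTD14, KCTD19, SOCS1 and SOCS3; background 4.16%). The combination against spermine NONOate, which is the thalidomide difference in the presence of the donor, gave 3 higher (FBXL4, KLHL1 and KLHL31; background 9.84%) and 3 lower (FBXO15, KCTD14 and KCTD19; background 6.03%). Spermine NONOate against control gave 1 higher, KLHL38, with a background of 4.33%, and 0 lower with a background of 1.33%. The combination against thalidomide gave 2 higher, KLHL30 and KLHL35, with a background of 3.74%, and 1 lower, KCTD19, with a background of 1.26%. The share of members called in either direction was 0.935% for spermine NONOate against control, where it was 5.67% over all genes. It was 8.41% against 14.2% for the combination against control, 2.80% against 4.99% for the combination against thalidomide, and 5.61% against 15.9% for the combination against spermine NONOate. In each comparison the members' share was the smaller one, a difference that was not tested.

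A fit of the 4 libraries with both treatments as additive terms on the log scale allowed the single test that the layout permits. This test is edgeR's quasi-likelihood F test with Benjamini-Hochberg adjustment over 12090 genes. It has 1 residual degree of freedom, counts any interaction as spread, and is not a test over biological replicates. For thalidomide it called 8 of 107 members higher, where 17.6% of all genes were called higher, and 8 lower, where 14.9% were. The 8 that rose were CUL4B, CUL5, FBXL4, FBXO18, FBXO39, KLHL1, KLHL24 and KLHL36, of which CUL5 and KLHL1 were not called with DESeq2. The 8 that fell were DCAF6, FBXL13, KCTD8, KCTD12, KCTD14, KCTD17, SOCS1 and SOCS2. Of these 8, KCTD14 was the one still called with total counts, under which 15 members were higher and 1 lower beside 22.4% and 7.19% of all genes. DCAF6, KCTD17 and SOCS1 also lost their calls with DESeq2. For spermine NONOate it called 0 members in either direction, with a background of 2.03% higher and 0.199% lower. Without adjustment, edgeR had 2 members with p under 0.05 for spermine NONOate, and DESeq2 had 0 by either measure. The share of all genes without adjustment is not given, so that count has no background here.

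The authors' deposited table gives its own unadjusted p for each gene and pair of libraries. For thalidomide against control, FBXO39 was under 0.05 and higher, as were 3.25% of genes in the authors' deposited table, and 0 members were lower, with a background of 1.72%. For spermine NONOate against control the authors' deposited table had 0 members in either direction, with a background of 3.59% higher and 0.933% lower. For the combination against control it was KLHL1, higher, with a background of 3.83%, and 0 lower, with 1.14%, in the authors' deposited table. For the combination against thalidomide it was KLHL35, higher, with a background of 3.01%, and FBXO5 and KCTD19, lower, with 1.53%, in the authors' deposited table. For the combination against spermine NONOate the authors' deposited table had 0 members higher, with a background of 3.13%, and KCTD14 and KCTD19 lower, with 1.67%. All of these but FBXO5, a cell cycle gene that restrains the anaphase-promoting complex, were also called by the rule of size in the same comparison.

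**Figure D1:**
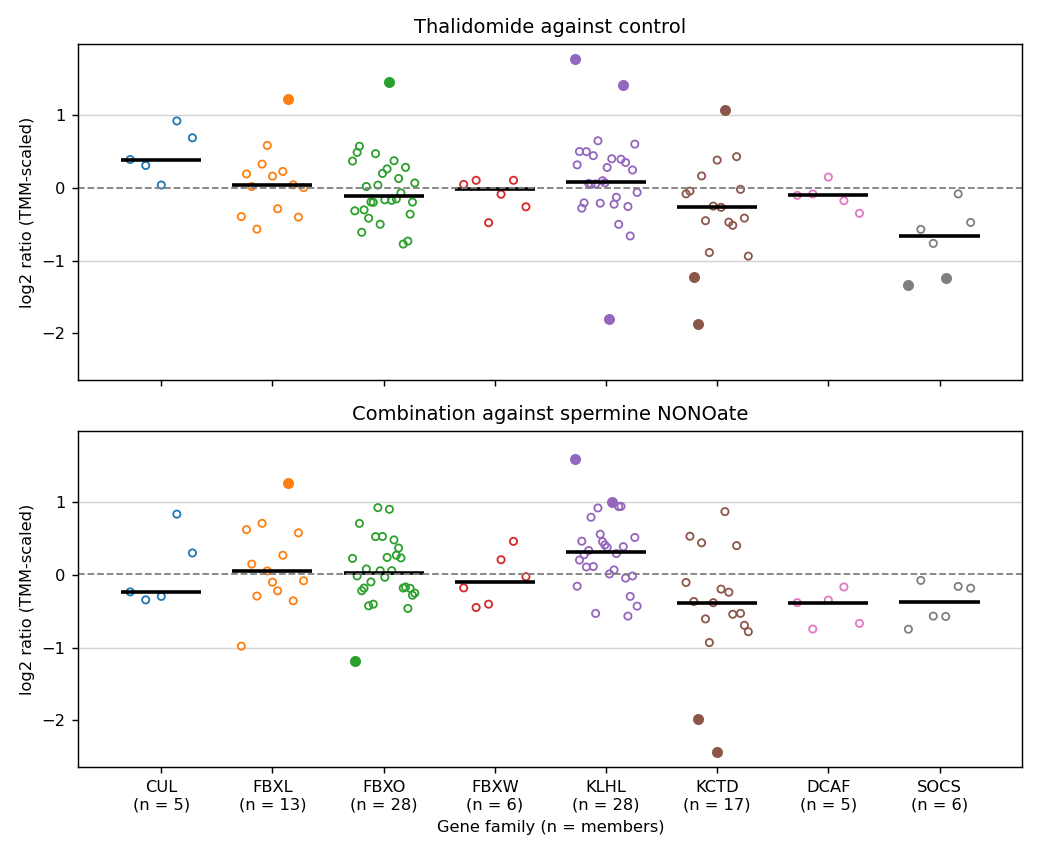
Log2 ratio of every member by gene family, for thalidomide against control (top) and for the combination against spermine NONOate (bottom), from TMM-scaled counts of 1 library each. Filled points were called by the rule of size, open points were not (FBXO43, under the read minimum, is open), black bars are family medians and the dashed line is the median of all genes. The SOCS median lies at -0.66 above and -0.37 below, and the KCTD median at -0.26 and -0.38.

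Of the cullin scaffolds, CUL4B and CUL5 rose with thalidomide. CUL4B, the scaffold that carries DDB1 and the DCAF receptors, had 9810, 18020, 7227 and 16647 reads, or 135, 255, 120 and 215 CPM. The libraries with thalidomide both stood above those without. The ratio was 0.92 on the log2 scale (interval 0.89 to 0.96) for thalidomide against control and 0.84 (0.80 to 0.88) for the combination against spermine NONOate, each under 2-fold. CUL4B rose in the additive fit (log2 0.88, SE 0.19, edgeR adjusted p = 4.86e-05). With scaling by total counts, with or without the 50 most abundant genes, the first ratio passed 2-fold.

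CUL5, the scaffold of SOCS-box ligases, read 76.7, 124, 76.2 and 93.9 CPM. Its higher levels were again in the libraries with thalidomide, but the combination stood nearer to the libraries without it. It rose in the additive fit (log2 0.50, SE 0.20, edgeR adjusted p = 0.0396), a call lost in 3 of 5 other settings. The remaining cullins did not part by thalidomide. CUL1, the scaffold for F-box proteins, read 151, 198, 184 and 156 CPM. CUL2, which serves the VHL receptor, read 116, 144, 129 and 101 CPM. CUL3, the scaffold for BTB adaptors, read 247, 254, 267 and 217 CPM. Each of these had its lowest or next lowest level in the combination. The combination was below thalidomide alone for all 5 cullins, with log2 ratios from -0.50 for CUL2 to -0.22 for CUL3, none of them 2-fold. Over all genes 6316 of 12643 were below in that comparison. The 5 ratios come from the same pair of libraries.

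**Figure D2:**
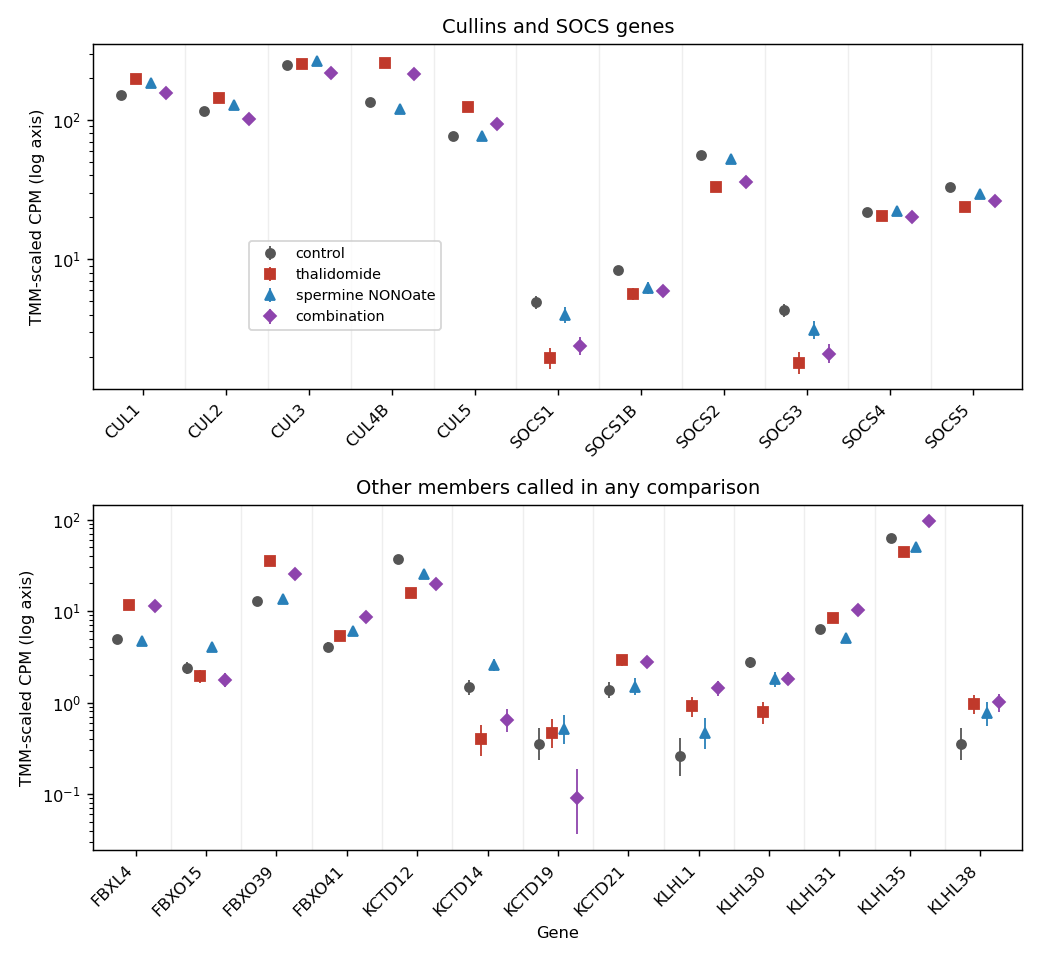
TMM-scaled CPM on a log axis in each of the 4 libraries, for the cullins and SOCS genes (top) and for the other members called in any comparison of 2 libraries (bottom). Each point is 1 library and bars are 95% exact Poisson intervals, which cover counting error only. CUL4B is higher, and SOCS1, SOCS2 and SOCS3 are lower, in both libraries with thalidomide than in both without.

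Among the F-box receptors with leucine-rich repeats, FBXL4 moved the most. FBXL4, a mitochondrial F-box protein that restrains mitophagy, had 362, 823, 280 and 873 reads. With thalidomide both libraries were more than 2-fold above both without, at 11.7 and 11.3 CPM against 4.97 and 4.65 CPM. It was 2.35-fold higher with thalidomide than in the control (log2 1.23, interval 1.05 to 1.41) and 2.41-fold higher in the combination than with spermine NONOate (log2 1.27, 1.08 to 1.47), a pair of comparisons that share no library. FBXL4 rose in the additive fit (log2 1.25, SE 0.33, edgeR adjusted p = 0.000953).

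FBXL13, also called DRC6 for its place in the dynein regulatory complex of cilia, read 19.02, 14.5, 23.2 and 11.7 CPM and fell in the same fit (log2 -0.69, SE 0.26, edgeR adjusted p = 0.0316). The most reads of the family in the control belonged to FBXL5, the iron sensor that directs degradation of iron regulatory protein IRP2, at 123, 127, 131 and 102 CPM. It was not called. The family median was close to 0 in every comparison, from -0.05 to 0.11.

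In the FBXO family, 28 genes of varied function, FBXO39 stood highest with thalidomide. It had 928, 2480, 823 and 1986 reads, and both libraries with thalidomide were above both without. It was 2.76-fold higher with thalidomide than in the control (log2 1.46, 1.36 to 1.58) and 2.01-fold higher in the combination than in the control (log2 1.01, 0.89 to 1.12), and it rose in the additive fit (log2 1.19, SE 0.25, edgeR adjusted p = 2.83e-05). The call for the combination against control was lost in 2 of 9 other settings. FBXO39 was not called in the combination against spermine NONOate, the pair that shares no library with thalidomide against control. FBXO18, a DNA helicase with an F-box, read 31.0, 46.2, 28.8 and 47.0 CPM and rose in the fit (log2 0.64, SE 0.23, edgeR adjusted p = 0.0183).

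Other FBXO calls were tied to 1 library. FBXO41, a brain F-box protein, had 296, 372, 368 and 663 reads and was called higher in the combination than in the control alone (2.10-fold, log2 interval 0.87 to 1.28). Its 3 other libraries lay between 4.06 and 6.12 CPM, and the combination at 8.54 CPM. FBXO15, a pluripotency-associated gene in mouse, had 176, 137, 244 and 138 reads and was 2.28-fold lower in the combination than with spermine NONOate, where it was highest. In both genes a single library carried the call. The most reads in the control belonged to FBXO9, at 164, 172, 178 and 150 CPM, and FBXO11, whose known substrates include BCL6, at 158, 205, 157 and 184 CPM. Of the 28, 8 had both thalidomide libraries above both without and 11 had both below, near the shares of 33.2% and 32.6% over all genes. With scaling by total counts they were 13 and 7, beside 43.1% and 22.3% over all genes.

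The FBXW receptors, which read phosphorylated degrons through WD40 repeats, had no call in any comparison, as had the CUL and DCAF families. Over all genes 4.99% to 16.5% were called in either direction. No FBXW member was called in the additive fit, where 32.5% of all genes were for thalidomide. With 6 genes, these counts are not read as a trait of the family. FBXW11, a beta-TrCP that targets beta-catenin and IkappaB, read 185, 192, 201 and 177 CPM, and FBXW2 read 78.2, 84.3, 89.6 and 65.7 CPM. All 6 stayed within 0.48 log2 units of the control in each treated library. BTRC, the close paralogue of FBXW11 that the naming rule leaves out, read 29.3, 43.4, 23.5 and 49.8 CPM, was called higher in the combination than with spermine NONOate (log2 interval 1.00 to 1.17), and rose in the additive fit (log2 0.82, SE 0.23, edgeR adjusted p = 0.00208).

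The KLHL family, kelch-repeat BTB proteins that serve CUL3, leaned upward. Both libraries with thalidomide stood above both without for 14 of 28 members, and below for 3, where the shares over all genes were 33.2% and 32.6%. The median log2 ratio was 0.09 for thalidomide against control, 0.31 for the combination against spermine NONOate and 0.23 for the combination against control, and it stayed above 0 in all 5 scalings. KLHL24, which controls keratin 14 in skin, read 45.1, 70.8, 38.1 and 72.1 CPM. KLHL36 read 39.1, 51.5, 33.0 and 63.4 CPM. KLHL24 (log2 0.79, SE 0.21, edgeR adjusted p = 0.00169) and KLHL36 (log2 0.67, SE 0.22, edgeR adjusted p = 0.0111) rose in the additive fit without passing 2-fold in any pair of libraries with TMM scaling. With total counts both passed 2-fold in the combination against spermine NONOate, as did KLHL36 with total counts less the 50 most abundant genes.

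Some of the larger KLHL ratios rest on few reads. KLHL1, an actin-binding protein of neurons, had 19, 64, 28 and 111 reads. The libraries with thalidomide were both above those without, and KLHL1 was 3.42-fold higher with thalidomide than in the control (log2 1.77, 1.04 to 2.62), 3.03-fold higher in the combination than with spermine NONOate (log2 1.60, 1.01 to 2.27) and 5.37-fold higher in the combination than in the control. It rose in the additive fit (log2 1.70, SE 0.52, edgeR adjusted p = 0.00596), a call lost in 1 of 4 other settings, that with DESeq2. The 5 detected neuron markers summed to 639, 777, 958 and 900 CPM, none at 0 in any library. They went both ways: DCX was called higher for thalidomide against control, and in the additive fit DCX rose while STMN2 and SNAP25 fell. Their part in the result was not tested.

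Several KLHL genes belong to striated muscle. KLHL30 had 200, 55, 109 and 142 reads. The thalidomide library was the lowest, 3.50-fold under the control (log2 -1.81, -2.27 to -1.38), and the combination stood 2.33-fold above thalidomide alone (log2 1.22, 0.77 to 1.71), level with spermine NONOate alone (log2 0.01, -0.36 to 0.39). KLHL38 had 26, 68, 46 and 78 reads and was called higher than the control in each treated library, by 2.67-fold with thalidomide, 2.13-fold with spermine NONOate and 2.78-fold in the combination. These calls all rest on the 26 reads of the control. In that order they were lost in 2, 3 and 2 of 9 other settings. KLHL31, a regulator of myogenesis, read 6.39, 8.46, 5.07 and 10.2 CPM and was called higher in the combination than with spermine NONOate (2.01-fold, log2 interval 0.82 to 1.20), a call lost in 4 of 9 other settings.

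The 8 skeletal muscle markers found summed to 699, 246, 553 and 367 CPM, with none at 0 in any library. Of the 8, 5 were called lower with thalidomide than in the control and 0 higher, where 7.23% and 9.22% of all genes were. Both libraries with thalidomide were below both without for 7, where 32.6% of all genes had that order. KLHL30 was low in the library where these markers were lowest, whereas KLHL38 and KLHL31 were not. The part of muscle content in these results was not tested. Over the 6 members known from striated muscle, which also include FBXO32, FBXO40 and FBXL22, the CPM summed to 58.1, 46.7, 49.8 and 54.6.

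KLHL35 was the member whose pattern was least additive among those with over 1000 reads. It had 4592, 3145, 2983 and 7381 reads, so each agent alone went with a lower level than the control and both together with the highest. The combination was 2.13-fold above thalidomide alone (log2 1.09, 1.03 to 1.15). In the control the most reads of the family were those of KLHL9 and KLHL5. KLHL9, a mitotic adaptor that works on Aurora B, read 150, 144, 186 and 138 CPM, and KLHL5 read 117, 98.3, 135 and 91.4 CPM. Neither was called in any comparison.

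The KCTD family, smaller BTB proteins that form oligomers on CUL3 or act outside ligases, leaned the other way. Of 17 members, 10 had both libraries with thalidomide below both without and 3 had both above, where the shares over all genes were 32.6% and 33.2%. With total counts they were 9 and 5, beside 22.3% and 43.1%. The median log2 ratio was -0.26 for thalidomide against control, -0.38 for the combination against spermine NONOate and -0.39 for the combination against control, and it kept its sign in all 5 scalings, though the first was -0.07 with total counts. KCTD2, the member with the most reads, read 451, 375, 431 and 376 CPM, and KCTD3 read 185, 134, 175 and 148 CPM. In both genes the libraries with thalidomide were the lower ones, by less than 2-fold.

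KCTD14 had the largest fall of the 8 in the additive fit. It had 107, 28, 155 and 50 reads, and both libraries with thalidomide were below both without. It was 3.65-fold lower with thalidomide than in the control (log2 -1.87, -2.54 to -1.28), 3.97-fold lower in the combination than with spermine NONOate (log2 -1.99, -2.49 to -1.53), and it fell in the additive fit (log2 -1.94, SE 0.47, edgeR adjusted p = 0.000375). KCTD17, which acts on trichoplein in the making of cilia, read 5.40, 2.92, 6.05 and 3.17 CPM and fell in the fit (log2 -0.91, SE 0.36, edgeR adjusted p = 0.0375).

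KCTD8, KCTD12 and KCTD16 are auxiliary subunits of the GABA-B receptor. KCTD12 had 2698, 1116, 1532 and 1533 reads, was 2.34-fold lower with thalidomide than in the control (log2 -1.23, -1.33 to -1.13), and fell in the fit (log2 -0.80, SE 0.24, edgeR adjusted p = 0.00524). The control was its highest library, and the other 3 lay at 15.8, 25.5 and 19.8 CPM. KCTD8 read 7.76, 4.05, 9.77 and 5.68 CPM and fell in the fit (log2 -0.86, SE 0.33, edgeR adjusted p = 0.0347). KCTD16 read 1.88, 1.37, 3.59 and 2.36 CPM and was not called. The 3 summed to 46.6, 21.2, 38.8 and 27.8 CPM.

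KCTD21, which with KCTD6 and KCTD11 targets HDAC1 in Hedgehog signalling, went against its family. It had 100, 205, 90 and 213 reads and was 2.11-fold higher with thalidomide than in the control (log2 1.08, 0.73 to 1.44). Its other ratio for thalidomide, with the donor present, was 0.87 and under 2-fold, and its edgeR adjusted p in the additive fit was 0.0516. KCTD6 read 22.6, 22.3, 24.98 and 17.3 CPM. KCTD19, a meiotic gene in mouse, had 26, 33, 31 and 7 reads, so its calls rest on the 7 reads of the combination. It was called lower there than in the control, in thalidomide and in spermine NONOate, with log2 ratios of -1.91 (-3.43 to -0.74), -2.30 (-3.80 to -1.17) and -2.44 (-3.94 to -1.30).

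The DCAF receptors had no call in any pair of libraries, where 4.99% to 16.5% of all genes were called in either direction. With 5 genes, that is not read as a trait of the family. Of the 5, 4 had both libraries with thalidomide below both without, where 32.6% of all genes did. With scaling by total counts 1 did, where 22.3% of all genes did. DCAF6, a nuclear receptor coactivator, read 137, 108, 159 and 100 CPM and fell in the additive fit (log2 -0.51, SE 0.19, edgeR adjusted p = 0.0306). DCAF13, which also works in ribosome biogenesis, read 216, 201, 208 and 160 CPM. The DCAF sum was 475, 428, 503 and 364 CPM, with the combination lowest.

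The SOCS genes, feedback inhibitors of cytokine and growth factor signalling, were lower with thalidomide in part. Against the control 2 of 6 were called lower, where 7.23% of all genes were. In the additive fit 2 of 6 fell, where 14.9% of all genes did. With the donor present 0 of 6 were called, where 15.9% of all genes were in either direction. All 6 had both libraries with thalidomide below both without, 5 of 6 with total counts less the 50 most abundant genes, and 4 of 6 with plain total counts. The share over all genes was 32.6%, 27.6% and 22.3% in the same order of scalings. Their summed level was 128, 86.7, 118 and 92.1 CPM, which puts thalidomide at 67.6%, spermine NONOate at 92.1% and the combination at 71.8% of the control. The median log2 ratio was -0.66 for thalidomide against control and -0.37 for the combination against spermine NONOate, and it kept its sign in all 5 scalings.

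SOCS1, which blocks JAK kinases downstream of interferons, had 357, 137, 241 and 185 reads. It was 2.52-fold lower with thalidomide (log2 -1.33, -1.63 to -1.05) and 2.05-fold lower in the combination (log2 -1.04, -1.30 to -0.78) than in the control, and fell in the additive fit (log2 -1.04, SE 0.38, edgeR adjusted p = 0.0233). SOCS3, which binds the gp130 receptor and curbs STAT3, had 313, 128, 188 and 163 reads. It was 2.36-fold lower with thalidomide (log2 -1.24, -1.55 to -0.94) and 2.04-fold lower in the combination (log2 -1.03, -1.31 to -0.75) than in the control. Its edgeR adjusted p in the additive fit was 0.0587. For the combination against control both calls were lost in 3 of 9 other settings.

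SOCS2, which restrains growth hormone signalling, had the most reads of the family, read 56.0, 33.0, 52.8 and 35.6 CPM and fell in the additive fit (log2 -0.66, SE 0.22, edgeR adjusted p = 0.0124). SOCS5, which acts on EGF receptor signalling, read 32.9, 23.7, 29.6 and 26.04 CPM, and SOCS4, its close relative, 21.8, 20.6, 22.3 and 20.01 CPM. SOCS1B read 8.33, 5.61, 6.23 and 5.92 CPM. None of these 4 passed 2-fold in any pair. With the donor present, against spermine NONOate, no SOCS gene was called: the log2 ratios were -0.75 for SOCS1, -0.57 for SOCS3 and -0.57 for SOCS2.

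Blood cells express several SOCS genes. All 6 red cell markers found were lower with thalidomide than in the control, and they summed to 23848, 2951, 22840 and 5888 CPM. The 8 leukocyte markers found summed to 127, 82.4, 87.2 and 94.9 CPM. Of these, 2 were called lower with thalidomide than in the control and 0 higher, where 7.23% and 9.22% of all genes were. No marker of either list was at 0 in any library. Their part in the SOCS result was not tested.

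Of the JAK-STAT genes on a separate list, 11 of 28 names were found. For thalidomide against control 1 was called higher and 0 lower, where 9.22% and 7.23% of all genes were. In the other 4 comparisons 0 were called, where 4.99% to 15.9% of all genes were. The one called was GHR, the growth hormone receptor, with 73, 147, 106 and 100 reads. In the additive fit IFNGR1 (log2 0.70, SE 0.26, edgeR adjusted p = 0.0235) and PTPN11, the SHP2 phosphatase (log2 0.52, SE 0.19, edgeR adjusted p = 0.0266), rose for thalidomide, and 0 fell. Over all genes 17.6% rose and 14.9% fell in that fit. CISH, the relative of the SOCS genes outside the naming rule, read 11.9, 6.49, 9.95 and 7.59 CPM and was not called.

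Ligase parts and regulators outside the naming rule were read from a list of 46 names, of which 34 were found. The list holds adaptors, RING proteins, NEDD8 enzymes, COP9 signalosome subunits and further receptors, and not all of them serve every ligase. For thalidomide against control 0 of 34 were called in either direction, and so for spermine NONOate against control and for the combination against thalidomide. The shares over all genes were 16.5%, 5.67% and 4.99% in that order. The combination against control gave 0 higher (background 10.1%) and 1 lower, RBX1 (background 4.16%). The combination against spermine NONOate gave 2 higher, BTRC and SPOPL (background 9.84%), and 1 lower, RNF7 (background 6.03%). The additive fit called 3 higher for thalidomide, BTRC, CCNF and SPOPL, and 8 lower, COPS4, COPS7A, DDB2, RBX1, RNF7, SKP1, TCEB1 and UBE2F. Over all genes 17.6% were called higher and 14.9% lower in that fit. In either direction the fit called 32.4% of the list and 32.5% of all genes. With total counts the list had 6 higher and 2 lower, beside 22.4% and 7.19% of all genes. CRBN, DDB1 and TNFAIP1 were then added to those higher, and SKP1 and RBX1 were the 2 that still fell.

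SKP1, the adaptor of all F-box receptors, had 84564, 44959, 76085 and 54025 reads, or 1160, 637, 1264 and 696 CPM. Levels were lower in both libraries with thalidomide than in both without. It fell in the additive fit (log2 -0.86, SE 0.17, edgeR adjusted p = 1.3e-05) but did not reach 2-fold in any pair. RBX1, the RING protein of CUL1 to CUL4 ligases, read 114, 64.1, 105 and 54.6 CPM (log2 -0.89, SE 0.20, edgeR adjusted p = 0.000111). RNF7, the RING protein of CUL5 ligases, read 165, 129, 212 and 104 CPM (log2 -0.69, SE 0.19, edgeR adjusted p = 0.00226). All 3 of these fell with thalidomide. Receptors outside the naming rule went both ways in the fit. BTRC, CCNF and SPOPL rose, DDB2 fell (log2 -0.52, SE 0.21, edgeR adjusted p = 0.0476), and VHL was not called (log2 -0.26, SE 0.23). CCNF, the F-box protein cyclin F, read 79.2, 135, 69.1 and 106 CPM (log2 0.69, SE 0.20, edgeR adjusted p = 0.00275). SPOPL, a CUL3 receptor, read 19.5, 33.7, 14.8 and 29.8 CPM (log2 0.90, SE 0.24, edgeR adjusted p = 0.00133).

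Another group of genes moved with those that fell. The 51 cytosolic ribosomal protein genes summed to 103962, 51748, 97963 and 48919 CPM, with a median log2 ratio of -0.99 for thalidomide against control. In that comparison 25 of the 51 ribosomal genes were called lower, where 7.23% of all genes were. The part of these ribosomal genes in the lower levels of SKP1, RBX1 and RNF7 was not tested. CRBN, which encodes cereblon, had 1412, 1797, 1028 and 1959 reads, or 19.4, 25.5, 17.1 and 25.2 CPM, and DDB1, the adaptor between CUL4 and cereblon, read 262, 256, 166 and 306 CPM. Neither passed 2-fold in any pair. Their edgeR adjusted p values for thalidomide were 0.118 for CRBN and 0.0645 for DDB1, and with total counts both were called higher. NEDD8, SKP2, KEAP1 and SPOP were not analysed here.

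**Figure D3:**
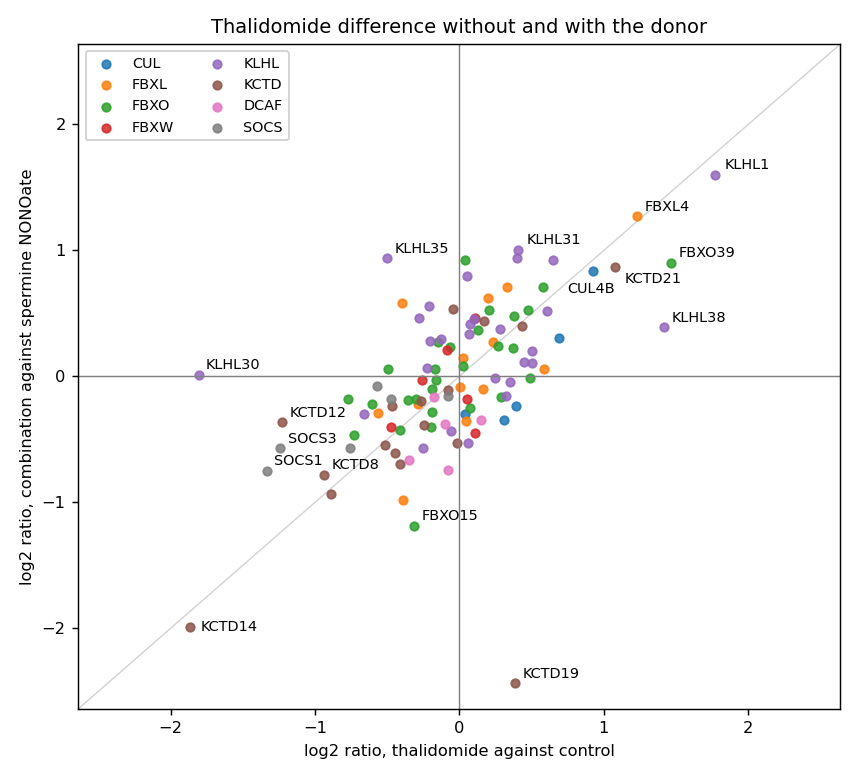
Log2 ratio of each member for thalidomide against control (horizontal) and for the combination against spermine NONOate (vertical), coloured by family, with the line of equal ratios in grey. The axes share no library. FBXL4, KLHL1 and KCTD14 lie far out near the line, while KCTD19, KLHL30 and KLHL35 lie away from it.

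The thalidomide difference could be read from 2 pairs of libraries that share none. Across 107 members the log2 ratios of both pairs had a Pearson r of 0.585, and 76 members, 71.0%, had the same sign. Over all 12026 genes tested in both, r was 0.656 and 76.2% had the same sign. Members called in both the same way were FBXL4, KLHL1 and KCTD14, which is 30% of the 10 called without the donor and 50% of the 6 called with it. For all genes those shares were 45.2% and 46.8%, and 7.27% of genes were called in both. Of all 108 members, 33 had both libraries with thalidomide above both without and 38 had both below, near the shares of 33.2% and 32.6% over all genes. These correlations are over genes, which are not independent replicates.

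**Figure D4:**
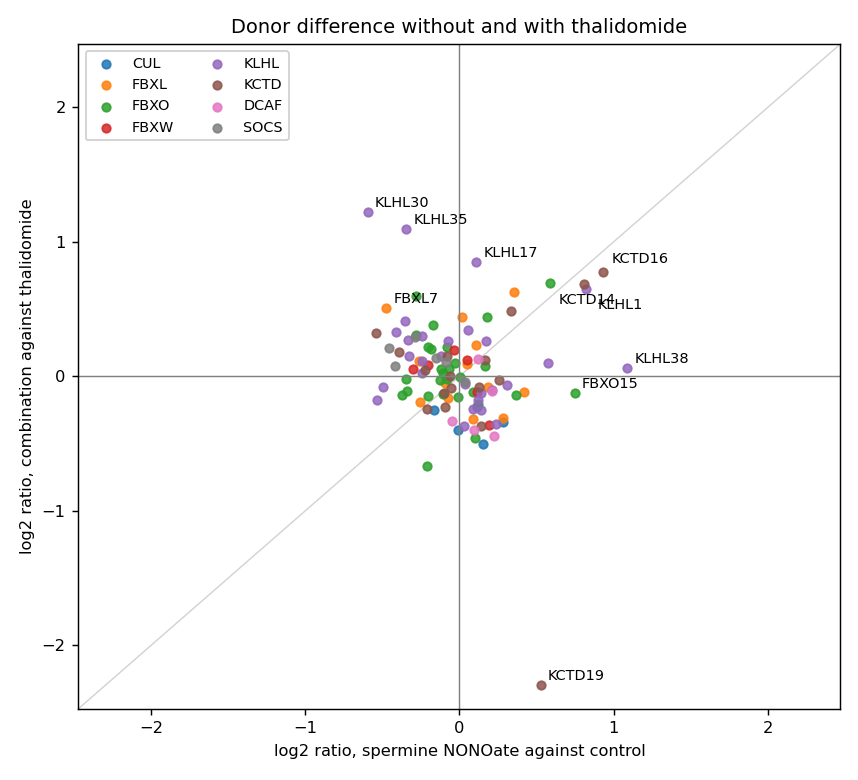
Log2 ratio of each member for spermine NONOate against control (horizontal) and for the combination against thalidomide (vertical), coloured by family, with the line of equal ratios in grey. The axes share no library. Most members lie within 0.5 of the origin; KCTD19 lies at -2.30 on the vertical axis, and KLHL30 and KLHL35 lie in the upper left.

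The donor difference, read the same way, was smaller and did not recur. The median size of the log2 ratio was 0.18 for spermine NONOate against control and 0.18 for the combination against thalidomide. The Pearson r between them was -0.13, and 39 of 107 members, 36.4%, had the same sign, against r = 0.20 and 48.3% over all genes. No member was called in both, of 1 and 3 called. Both libraries with the donor stood above both without for 7 members and below for 6, where the shares over all genes were 9.42% and 7.9%. For 80 members the thalidomide ratios with and without the donor differed by under 0.5 on the log2 scale, and for 4 by at least 1. No share over all genes is given for this difference, so these counts are not read as a trait of the members.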

How the data were processed

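The authors deposited unnormalised counts of reads for each gene, 1 library per column. Beside them, per the file headers, stand a fold (ratio), a log2 fold and an unadjusted p-value for 5 comparisons; of these only the deposited p-values are used, as counts under 0.05. The submitters' processing notes name TopHat2 2.0.8, DESeq and galGal4, and the file headers name Ensembl release 75. How reads were counted, and whether by strand, is not given in the sources used here: overlapping genes were not separated, and reads of close paralogues (KCTD2, KCTD5 and KCTD17; FBXW11 and BTRC; SOCS1 and SOCS1B; CUL4B; KLHL9) may be divided between them. Genes outside chromosomes 1 to 21 were not analysed here, and 1 cullin gene and 1 gene that the naming rule covers are not reported here. No column was left without a sample.

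Counts were scaled with TMM (edgeR 4.0.16, R 4.3.3). Ratios add 0.5 reads to each count and carry a 95% exact conditional-binomial (Clopper-Pearson) interval. The additive fit used genes with at least 20 reads in at least 2 libraries, edgeR's quasi-likelihood F test and an adjusted p under 0.05. Standard errors are the log2 change over the root of F. Both procedures were tested on simulated data, with outcomes not given here. The simulation for the additive fit had no donor effect and no interaction, so it does not show how the fit handles either. The members, gene lists and tests were chosen with earlier results of these data known. Genes named are members called in any pair or in the fit, all cullins, the 2 most abundant of each family in the control, called genes of the core ligase and JAK-STAT lists, and CRBN, DDB1, SKP1 and RBX1. Other members and markers named were chosen after their values were seen. NCBI RefSeq names of assembly GRCg7b linked older symbols. Alternatives were 4 other scalings, fold thresholds of 1.5 and 4, minimum reads of 0 and 100, 5 reads added, and DESeq2 1.42.0.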

Additional observations from a re-analysis of the deposited data

Results flagged for a closer look

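In 2 members the effect of an agent ran in opposite directions without and with the other agent, with both intervals excluding 1 and the ratios at least 1 apart on the log2 scale. Without that minimum, 19 of 108 members had opposite directions for thalidomide and 43 for the donor. No share over all genes is given for this measure, so these counts are not read as a trait of the members. Each side is 1 library against 1 library, so the difference was not tested. KLHL35 was lower with thalidomide than in the control (log2 -0.50) and higher in the combination than with spermine NONOate (log2 0.94), a difference of 1.44. The same 4 values give a donor ratio of -0.35 without thalidomide and 1.09 with it, again 1.44 apart. KLHL30 was lower with spermine NONOate than in the control (log2 -0.60) and higher in the combination than with thalidomide (log2 1.22), a difference of 1.82.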

How the results depend on the processing

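No called ratio or fold of a single gene changed sign; medians and the balance of counts did, as given below. A fold threshold of 1.5 gave members higher and lower of 10 and 12 (thalidomide against control), 5 and 1 (spermine NONOate against control), 14 and 10 (combination against control), 9 and 2 (combination against thalidomide) and 14 and 11 (combination against spermine NONOate). It gave core ligase genes of 3 and 5, 0 and 1, 2 and 6, 0 and 0, and 4 and 7 in that order, and JAK-STAT genes of 2 and 1, 1 and 0, 0 and 1, 0 and 1, and 2 and 0. At 4-fold 0 members were called except 1 higher in the combination against control (KLHL1) and, against spermine NONOate, 1 lower in the combination (KCTD19), with the combination's lower call against thalidomide kept at 1; core ligase and JAK-STAT counts were 0. Requiring 100 reads left 3 higher for thalidomide, 0 higher for spermine NONOate and 0 lower for the combination against thalidomide. Adding 5 reads left 0 for spermine NONOate. Shares over all genes are not given for these thresholds or read settings, so the counts describe only how the calls moved.

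Total counts shifted the all-gene median by 0.20, 0.22 and 0.16 for thalidomide, the combination and the combination against spermine NONOate, and the member medians there went from -0.03, -0.05 and -0.04 to 0.17, 0.18 and 0.12. The share of calls that were higher, over all genes, went from 56.0% to 74.9%, from 70.8% to 87.7% and from 62.0% to 77.7%. Members lower in the combination than in the control were then 1, or 2 without the 50 most abundant genes, beside 255 and 345 of 12176 genes. Members higher in the combination than with spermine NONOate were 9, or 5, beside 1631 and 1387 of 12161 genes. JAK-STAT genes higher for thalidomide were 2 with total counts, beside 1674 of 12138 genes. Lower core ligase genes were 0 by either scaling, a count that is not read as a trait of the list. Members with both thalidomide libraries above and below went from 33 and 38 to 47 and 24 with total counts. The shares over all genes went from 33.2% and 32.6% to 43.1% and 22.3%. Members with both donor libraries above were 11 without the 50 genes, beside 11.8% of all genes. Upper quartile scaling gave 3 members with both donor libraries below, beside 5.43% of all genes. Upper quartile scaling and DESeq2 size factors each gave 1 core ligase gene higher in the combination than with spermine NONOate. Over all genes they gave 1128 and 1152 of 12161. Members apart by a gap of at least 1.5-fold were 6 above and 3 below for thalidomide and 0 and 0 for the donor. No share over all genes is given for that gap. The additive fit for thalidomide gave 15 members higher and 1 lower with total counts, beside 22.4% and 7.19% of all genes. With DESeq2 it gave 5 lower, beside 12.4%. Core ligase genes went from 3 higher and 8 lower to 6 and 2 with total counts. The shares over all genes went from 17.6% and 14.9% to 22.4% and 7.19%. Medians of all members, FBXO, FBXW and DCAF changed sign with total counts for thalidomide against control. The cause was not tested.

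No paired analysis was possible because the labels carry no replicate numbers and each group has 1 library, so no library was left out either. The planned comparison by protein length was not run, for want of a protein table. The called members KCTD19 and KLHL38, under 100 reads in every library, are limited by depth.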
